A study of Apis mellifera with 79 samples.

Results

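Foxp (GB40150 in the files) encodes the FoxP protein of the honey bee, and its level was followed in every brain library of both studies. It is 1 of the 11525 genes that the 4 deposited tables hold, and it stands in all 4. The gene was chosen by its difference between exposed and unexposed foragers of the field study, where the study placed it in a list of 16 transcription factors, so its values in those foragers are a description with no test.

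FoxP proteins are transcription factors that bind DNA through a forkhead domain. Vertebrates have several FoxP genes, of which Foxp2 is known for vocal learning and speech, and insects such as Drosophila have a single FoxP gene, which is known from work on motor control and on learning from the animal's own actions. In worker honey bees the tasks change with age, from nursing the brood inside the hive to foraging outside, and the brain transcriptome changes with them.

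The field study held pooled libraries, each made of 5 brains of 1 colony, and the apiary study held libraries of single brains. Field bees came from colonies near corn treated with neonicotinoid insecticides (exposed, 5 forager pools and 5 nurse pools) or from colonies at least 3 km away from farmland (unexposed, 5 forager pools and 4 nurse pools). Apiary colonies were fed pollen patties with clothianidin, a neonicotinoid, at 4.9 ppb in week 1, falling to 2.0 ppb by week 5 and kept there to week 12, or patties without it. Each of the 3 exposed colonies (C21, C23 and C28) and 3 unexposed colonies (C25, C26 and C27) gave 5 foragers and 5 nurses, sampled on day 30. Task was judged by behaviour, pollen carrying for foragers and brood tending for nurses. The hypopharyngeal glands and ocelli had been removed from the brains. In the field each exposure was 1 site, so exposure and site cannot be told apart. In a whole brain, fewer cells of a type and less RNA per cell cannot be told apart either. The tissue could not be checked against marker genes, since the IDs of the files could not be paired with those genes here.

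Values are log2 CPM, reads of the gene scaled to library size on a log scale, on which a step of 1 is a change by a factor of 2. Foxp was well covered: 961 to 5373 reads of it lay behind each value, and counting error alone was at most 0.047 on the log2 scale. The libraries held 10.46 to 45.09 M reads in genes. The mean log2 CPM of Foxp lay above that of 73.9% of the genes in field foragers, 73.5% in field nurses, 81.8% in apiary foragers and 81% in apiary nurses, with no correction for gene length. Replicates are pools or single bees, and bees of 1 colony share that colony.

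In field foragers, the comparison by which Foxp was chosen, 4 of the 5 exposed pools lay above every unexposed pool. The exposed pools had log2 CPM of 5.89 (colony 2J1), 7.04 (2J2), 7.05 (2J3), 6.82 (2J4) and 6.84 (2J5), with a mean of 6.73 ± 0.48 (SD, n = 5). The unexposed pools had 6.12 (1J7), 6.402 (1J9), 6.39 (2J10), 6.06 (2J6) and 5.72 (2J7), with a mean of 6.14 ± 0.28 (SD, n = 5). The pool of colony 2J1 stood apart from the other exposed pools and below 4 of the unexposed pools. The difference in means was 0.59 (SE 0.25) with all pools and 0.80 (SE 0.14) without 2J1.

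**Figure D1:**
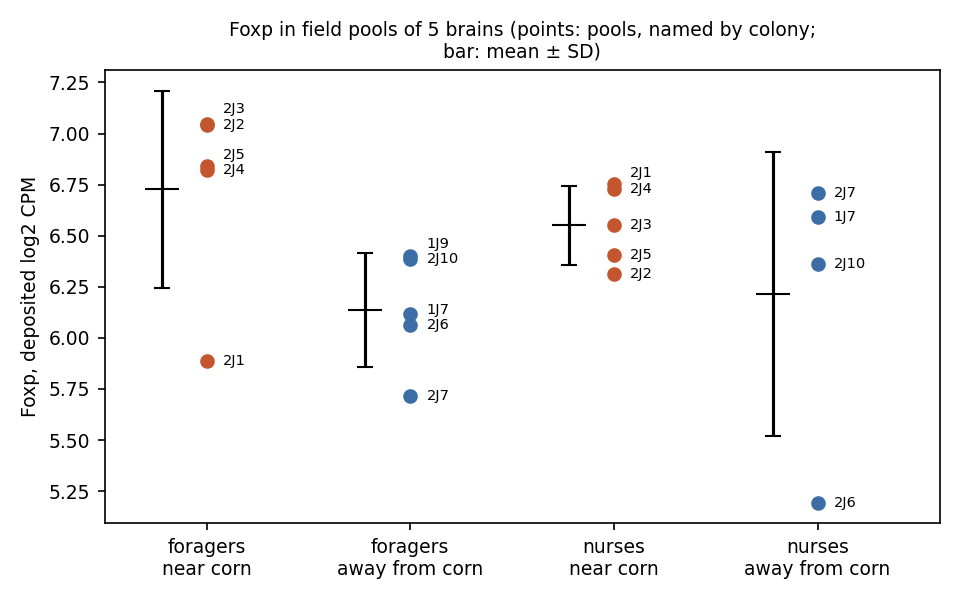
Deposited log2 CPM of Foxp (vertical axis) in the 19 field pools of 5 brains, by caste and site, with each pool named by its colony and the mean ± SD of each group as a bar. Among foragers near corn, 4 pools lie between 6.82 and 7.05 and colony 2J1 lies at 5.89, and among nurses away from corn, colony 2J6 lies at 5.19, below the other 3.

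In field nurses, which had no part in the choice of the gene, the exposed and unexposed pools overlapped. The exposed pools had log2 CPM of 6.75 (2J1), 6.31 (2J2), 6.55 (2J3), 6.73 (2J4) and 6.41 (2J5), with a mean of 6.55 ± 0.19 (SD, n = 5). The unexposed pools had 6.59 (1J7), 5.19 (2J6), 6.71 (2J7) and 6.36 (2J10), with a mean of 6.21 ± 0.70 (SD, n = 4). Of the exposed pools, 2 lay above every unexposed pool, and only the unexposed pool of 2J6 lay below every exposed pool. The difference was 0.34 (SE 0.27, 95% interval -0.31 to 0.98, limma adjusted p = 0.6642), and an exact permutation test of the 9 pools over 126 arrangements gave p = 0.3968. Limma called 0 of 10852 genes in this comparison (0%), with 454 at an unadjusted p below 0.05, and limma-voom on the reads also called 0. The paper, which tested read counts by another method, reported more differing genes for exposure here and in both apiary castes. Without 2J6 the difference was -0.003 (adjusted p = 0.9999). In a fit of all 9 pools that also held sequencing lane it was 0.62 (adjusted p = 0.3631). In that fit 2J6 was the only unexposed nurse pool of its lane, and 2J7 had no other nurse pool in its lane. The value with lane thus also leaned on 2J6.

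The low value of the 2J6 nurse pool was shared by nearly the whole list of transcription factors that the study named together with Foxp. In this pool the log2 CPM of Foxp lay 1.36 below the mean of the other 3 unexposed nurse pools. Of the 15 other listed genes, 14 had their lowest unexposed nurse value in the same pool, and their median lay 1.21 below the other pools. The exception was LOC411780, described as a zinc finger protein. The median over all genes of the table lay 0.045 above the other pools, and the pool was the deepest of the 4, with 26.38 M reads in genes beside 21.46 to 26.11 M. The share of all genes with their lowest value in this pool was not counted. The foragers of the same colony had 6.06, and the nurses of 2J1, the colony of the low forager pool, had the highest of the 9 nurse values, 6.75.

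The 15 other listed genes were also examined in the nurses as a group. Between exposed and unexposed field nurses, 13 were higher and 2 were lower in exposed pools, 0 passed the test, and their differences ran from -0.86 (Kr-h1) to 0.61 with a median of 0.34. The median over all genes was -0.007, and 5289 of 10852 genes were higher in exposed pools. Without the 2J6 pool 11 were higher and 4 lower, and the median of the list was 0.038, beside 0.004 over all genes. The list was chosen on field foragers of the same colonies, so its count is not independent evidence of its direction.

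Foxp did not pass the test for clothianidin in apiary foragers, and the groups overlapped. The 15 exposed foragers ran from 6.08 to 7.32 with a median of 6.86 and a mean of 6.84 ± 0.37 (SD, n = 15), and the 15 unexposed foragers from 6.06 to 7.17 with a median of 6.80 and a mean of 6.80 ± 0.29 (SD, n = 15). Of the exposed foragers, 4 lay above every unexposed forager, the C21 bees F2 to F5 at 7.18 to 7.32, and 1 unexposed forager lay below every exposed one. The difference in log2 CPM was 0.043 (SE 0.12, 95% interval -0.19 to 0.28, limma adjusted p = 0.9201). Clothianidin was given to colonies, so this interval, which takes bees as independent, is too narrow, and over the 6 colony means it was -0.29 to 0.38. With these means as the unit, 3 against 3, an exact permutation test gave p = 0.8, and the smallest p it allows is 0.1. Limma called 1 of 11381 genes here (0.00879%), GB53776, which lies outside the rule for named genes and was 1.25 lower in exposed foragers (SE 0.19). Only 1 sequencing lane held foragers of both groups (1 exposed and 3 unexposed), and with lane as a term the difference was 0.23. In the second sequencing run alone it was 0.22 (adjusted p = 0.3621), and without colony C21 it was -0.092.

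In apiary nurses the mean of Foxp was lower in exposed bees, and this difference did not pass the test either. The 15 exposed nurses ran from 5.95 to 7.53 with a median of 6.76 and a mean of 6.72 ± 0.41 (SD, n = 15), and the 15 unexposed nurses from 5.85 to 7.51 with a median of 6.90 and a mean of 6.88 ± 0.41 (SD, n = 15). Of the exposed nurses, 4 lay above the unexposed median. The difference was -0.17 (SE 0.14, 95% interval -0.46 to 0.13, limma adjusted p = 0.5937) over bees and had an interval of -0.78 to 0.44 (SE 0.22) over colony means, and an exact permutation test of the colony means gave p = 0.5. Limma called 6 of 11271 genes (0.0532%). The sign rested on 1 colony and on the lanes: without C21 the difference was 0.007, without C25 it was -0.38, and with lane as a term, which rests on 4 exposed and 2 unexposed nurses in shared lanes, it was 0.22.

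The contrast of foragers did not differ detectably from that of nurses. The difference between both contrasts was 0.21 (SE 0.19, 95% interval -0.17 to 0.59, limma adjusted p = 0.6209), and 0 of 11151 genes were called (0%), with 1581 at an unadjusted p below 0.05. Over means per colony and caste the interval was -0.43 to 0.85 (SE 0.28). Neither fit paired the castes of a colony, so both intervals leave out that foragers and nurses shared colonies. The difference of 0.21 turned to -0.099 without C21, and it was 0.49 without C25 (adjusted p = 0.1723) and 0.45 in the second sequencing run alone (adjusted p = 0.3933). Of the other listed transcription factors, 10 were higher and 5 lower in exposed foragers, 2 were higher and 13 lower in exposed nurses, and 0 passed in either caste. Over all genes, 5525 of 11381 were higher in exposed foragers and 5595 of 11271 in exposed nurses. Most listed genes varied with Foxp from bee to bee, and bees share colonies, so their signs are not independent of each other.

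**Figure D2:**
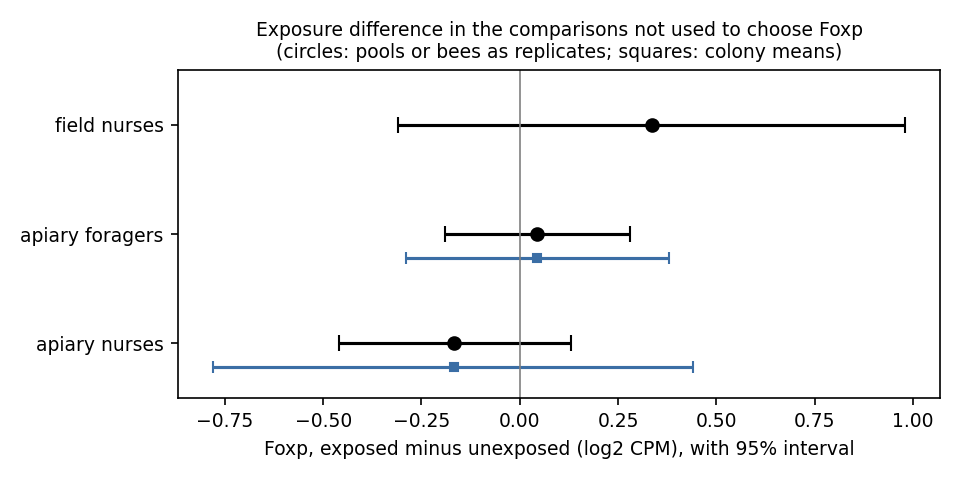
Difference of Foxp between exposed and unexposed libraries (horizontal axis, log2 CPM) in field nurses, apiary foragers and apiary nurses, with 95% intervals over pools or bees (circles) and over colony means (squares) as bars. Every interval shown includes 0, with differences of 0.34, 0.043 and -0.17.

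Foragers and nurses of the apiary did not differ detectably in Foxp, while most of the other listed transcription factors were higher in foragers. Castes were compared after each library's median over the 11151 genes in both apiary tables had been subtracted, since the tables had been normalized apart. Foxp was 0.082 higher in foragers (SE 0.096, 95% interval -0.11 to 0.27, limma adjusted p = 0.4709) on this log2 scale. This interval takes bees as independent, although foragers minus nurses differed in sign among colonies. With means per colony and caste in place of bees, the SE was 0.153 (limma adjusted p = 0.6954). An exact sign-flip permutation test over the 6 colonies gave p = 0.75, where 0.03125 is the smallest it allows. In the fit over bees 6617 of 11151 genes passed (59.3%), of which those higher in foragers were 32.6% of all genes tested.

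Of the 15 other listed genes, 15 had higher means in foragers and 13 passed the test, with differences of 0.27 to 1.44 and a median over the list of 0.46, beside 0.023 over all genes. Of all 11151 genes, 6025 had higher means in foragers. These 13 stayed higher and called with upper-quartile scaling and with plain CPM (13 of 13 shared in each), which moved the median of all genes to -0.016 and -0.042. The share of called genes that were higher in foragers was 54.87% with the median, 44.39% with the upper quartile and 39.85% with plain CPM. Without colony C21, and without C25, 11 of the listed genes were called. These calls take bees as replicates, and the listed genes were not tested over colony means. Over all genes, 3844 were called with means per colony and caste, beside 6617 over bees. The list had been drawn from field foragers, so the apiary bees had no part in its choice. However, it held only factors of a published regulatory network of the honey bee. The paper ties most of them to the maturation of workers from nursing to foraging. Their count by caste is therefore not independent of how the list was made.

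The largest difference in the list belonged to Kr-h1, a zinc finger factor that responds to juvenile hormone, with 1.44 (SE 0.23, adjusted p = 3.171e-07). The other forkhead gene, LOC724740, is described as slp2, in Drosophila a regulator of embryonic segmentation, and it was 0.53 higher in foragers (SE 0.11, adjusted p = 2.551e-05). Mblk-1, a factor first described in the large neurons of the honey bee mushroom bodies, was 0.49 higher (SE 0.11, adjusted p = 0.0001833).

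Among the others that rose, LOC410468 (protein hairy, in Drosophila a repressor in segmentation) was 0.97 higher and LOC410253, which the study's list describes as an ataxin-2 homolog but matches to the fly clock gene vrille, was 0.85 higher. LOC100577139 (Lilliputian) was 0.59 higher, LOC726415 (LIM/homeobox protein Lhx9) 0.54, and LOC113218618 (protein tramtrack, in Drosophila a repressor of neuronal genes) 0.46. LOC408411 (Sox-2, in vertebrates a factor of neural progenitors) was 0.46 higher, LOC411009 (dachshund homolog, in Drosophila needed in eye and mushroom body) 0.46, LOC551364 (SIX3, in vertebrates a forebrain factor) 0.32, LOC410347 (protein big brother, in Drosophila a partner of Runt factors) 0.30 and LOC411780 0.27. Besides Foxp, LOC724983 (retinal homeobox protein) at 0.10 and the uncharacterized LOC726709 at 0.073 did not pass.

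**Figure D3:**
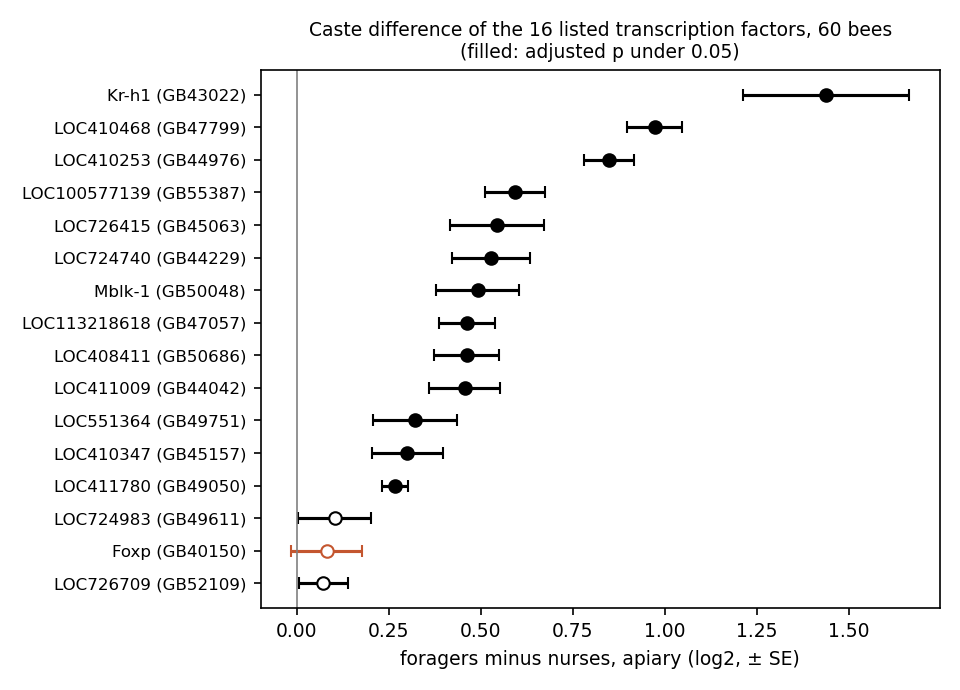
Difference between apiary foragers and nurses (horizontal axis, log2 units after each library's median was subtracted, ± SE) for the 16 listed transcription factors in 60 bees, ordered by size, with filled points for an adjusted p below 0.05. Foxp, in colour, lies at 0.082 with an open point, and 13 of the other 15 points are filled.

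The small mean difference in Foxp between castes covered colony differences of both signs. On the scale with the library median subtracted, foragers minus nurses was 0.81 in C21, 0.52 in C25, -0.02 in C28, -0.20 in C23, -0.28 in C26 and -0.34 in C27. The positive differences came from 1 exposed colony and 1 unexposed colony. Without C21 the mean difference between castes was -0.063 and without C25 it was -0.005. In the unexposed colonies alone it was -0.032 (adjusted p = 0.8563), and in the exposed colonies alone 0.20 (adjusted p = 0.2609).

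C21 and C25 had the highest forager means and the lowest nurse means of the 6 colonies. In C21 the level was 2.03 ± 0.26 in foragers and 1.22 ± 0.41 in nurses (SD, n = 5 each), and in C25 it was 1.85 ± 0.20 and 1.33 ± 0.36. In C26 foragers had 1.68 ± 0.23 and nurses 1.96 ± 0.16, and in C27 1.60 ± 0.44 and 1.94 ± 0.26. In C23 foragers had 1.62 ± 0.39 and nurses 1.82 ± 0.39, and in C28 1.64 ± 0.39 and 1.66 ± 0.16. In C21 the lowest forager, at 1.56, still lay above 3 of the 5 nurses, at 0.78, 0.93 and 1.09.

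Whether the caste difference varied among colonies was tested with a limma F test of caste by colony that was added after these values had been seen. Foxp passed it (adjusted p = 0.01356), as did 1304 of 11151 genes (11.7%) and 4 of the 15 other listed genes (LOC410347, LOC408411, LOC726709 and LOC100577139). Without C21 the adjusted p for Foxp was 0.1189, with 248 genes called, so the call rested on that colony. All foragers of C21 were sequenced on 1 lane, which C21-N3 alone of its nurses shared. Of the nurses of C25, likewise, only C25-N1 shared the lane of its foragers. No fit of this test held lane, so the part of lane was not tested. Without any of the other colonies the adjusted p was 0.008211 to 0.0432.

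**Figure D4:**
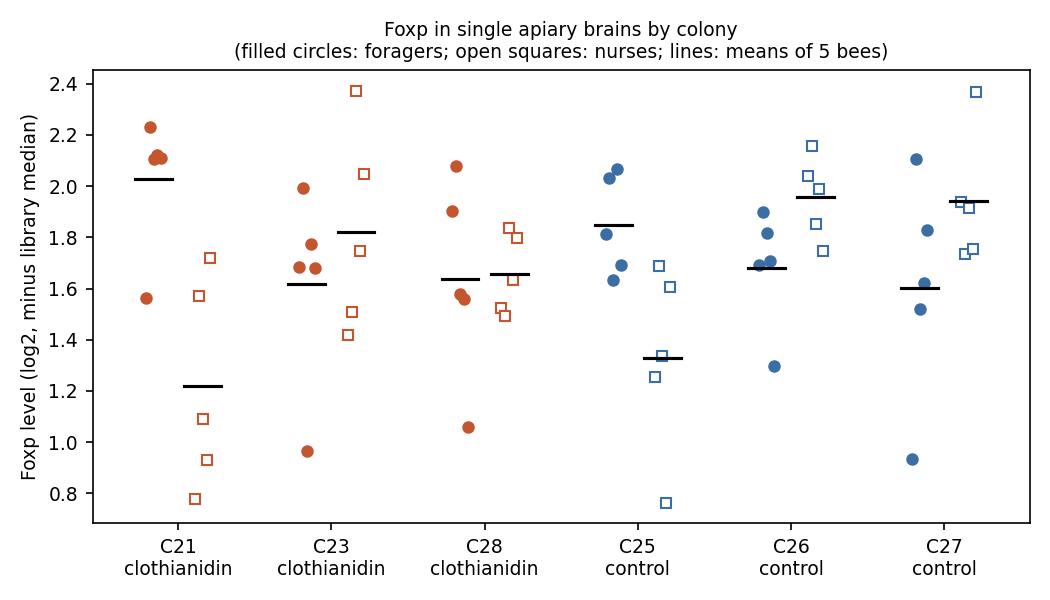
Foxp level of each apiary bee (vertical axis, log2 units after the library median was subtracted) by colony, with foragers as filled circles, nurses as open squares and the mean of each 5 bees as a line. The forager line lies above the nurse line in C21 (2.03 and 1.22) and C25 (1.85 and 1.33) and at or below it in the other 4 colonies.

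Among the 3 colonies of unexposed nurses Foxp passed the test for a difference, with C25 low. In deposited log2 CPM the unexposed nurses of C25 had 6.41, 6.83, 6.46, 5.85 and 6.75, with a mean of 6.46 ± 0.38 (SD, n = 5). Those of C26 had 7.18, 7.33, 7.01, 7.15 and 6.89, with a mean of 7.11 ± 0.17 (SD, n = 5). Those of C27 had 7.08, 6.90, 7.02, 6.88 and 7.51, with a mean of 7.08 ± 0.26 (SD, n = 5). Every nurse of C25 thus lay below every nurse of C26 and C27.

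The limma F test of these 3 colonies gave an adjusted p of 0.01353 for Foxp, and it stayed below 0.05 in all 20 alternatives run (0.0105 to 0.03441). In the same test 3135 of 11271 genes passed (27.8%), and 7 of the 15 other listed genes, among them Kr-h1 (adjusted p = 0.02774) and the Sox-2 gene LOC408411 (adjusted p = 0.008858). The nurses of each colony had been sequenced on lanes of their own, so colony and lane cannot be told apart.

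The other sets of colonies did not pass. Among exposed nurses C21 had a mean of 6.37 ± 0.42, C23 of 6.96 ± 0.40 and C28 of 6.82 ± 0.16 (SD, n = 5 each, limma adjusted p = 0.1568), where 121 of 11271 genes were called (1.07%). Among unexposed foragers C25 had 6.93 ± 0.20, C26 6.77 ± 0.22 and C27 6.69 ± 0.41 (SD, n = 5 each, limma adjusted p = 0.7244), where 65 of 11381 genes were called (0.571%). Among exposed foragers C21 had 7.11 ± 0.27, C23 6.70 ± 0.37 and C28 6.71 ± 0.38 (SD, n = 5 each, limma adjusted p = 0.6026), where 11 of 11381 genes were called (0.0967%). None of the other listed genes passed in these 3 tests. The unadjusted p for Foxp in these limma F tests was 0.02591, 0.3842 and 0.08851 in that order, beside 0.001674 in unexposed nurses. The adjusted p also depends on how the other genes of each test fared.

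In the field, forager and nurse pools of the same colony also differed in both directions, given here as a description since the forager values chose the gene. Near corn, foragers minus nurses, after each library's median over the 10734 genes in both field tables had been subtracted, was -0.87 (2J1), 0.65 (2J2), 0.46 (2J3), -0.02 (2J4) and 0.34 (2J5). Away from corn it was -0.48 (1J7), -0.04 (2J10), 0.82 (2J6) and -1.05 (2J7). Foragers were higher in 3 of 5 colonies near corn and in 1 of 4 away from it, and the means were 0.11 ± 0.60 (SD, n = 5) and -0.19 ± 0.79 (SD, n = 4).

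With each library's median over the 10714 genes of all 4 tables subtracted, the order of the 8 groups from high to low was as follows. Exposed apiary foragers had 1.65 ± 0.38, unexposed apiary nurses 1.63 ± 0.40, unexposed apiary foragers 1.60 ± 0.30 and exposed apiary nurses 1.46 ± 0.41 (SD, n = 15 each). Exposed field foragers had 1.42 ± 0.47 and exposed field nurses 1.31 ± 0.20 (SD, n = 5 each), unexposed field nurses 0.97 ± 0.69 (SD, n = 4) and unexposed field foragers 0.85 ± 0.27 (SD, n = 5). No neighbours in this order differed by more than the larger of their SDs. The studies differ in site, time and pooling as well, so the gap between field and apiary levels has no single reading, and the tables were normalized apart.

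Foxp varied between bees of 1 colony more than most genes did. Its SD within colonies was 0.32 in apiary foragers and 0.32 in apiary nurses, beside medians over all genes of 0.21 and 0.20. Of all genes, 68.3% had a smaller SD in foragers and 68.2% in nurses.

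The genes most like Foxp were sought by Pearson's r between bees after colony means had been subtracted, in the 30 foragers and in the 30 nurses, and 11150 genes were ranked by the smaller of both values. The bees of each caste share their colonies, tables and scaling, so these values are a description. The closest were GB53229, with r of 0.81 in foragers and 0.84 in nurses, and GB55184, with 0.78 and 0.81. The most opposite were GB47440, with -0.80 and -0.74, and GB52315, with -0.79 and -0.74. The names of these 4 genes are not paired with their IDs in the sources used here. In all, 30 genes had r of 0.7 or more in both castes, and the median r over all genes was -0.06 in foragers and 0.02 in nurses.

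The listed transcription factors mostly varied with Foxp from bee to bee. Of the 15 others, 12 had r above 0 in both castes, beside 33.84% of all genes, and 6 had r of 0.5 or more in both, beside 5.004% of all genes. Their medians were 0.61 in foragers and 0.35 in nurses. Among the listed genes, the nearest to Foxp by rank was LOC410347 (protein big brother), ranked 51 of all genes, with r of 0.71 and 0.68. It was followed in the list by Lilliputian (LOC100577139, 0.65 and 0.62) and tramtrack (LOC113218618, 0.75 and 0.62). The Sox-2 gene LOC408411 had 0.83 in foragers and 0.55 in nurses, Mblk-1 had 0.61 and 0.53, and slp2 (LOC724740) had 0.52 and 0.34. Kr-h1 had r below 0 in both castes, with -0.16 and -0.33, as did LOC411780, with -0.36 and, near 0, -0.04.

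**Figure D5:**
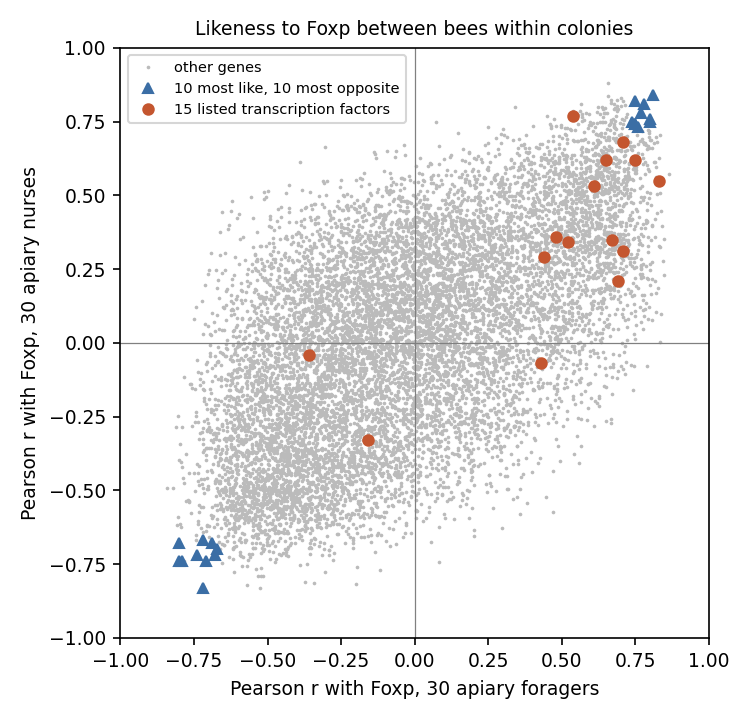
Pearson's r of each gene with Foxp between bees, after colony means were subtracted, in 30 apiary foragers (horizontal axis) and 30 apiary nurses (vertical axis), with the 10 most like and 10 most opposite genes as triangles and the 15 other listed transcription factors as circles. Of the circles, 12 lie above 0 in both castes, and Kr-h1 and LOC411780 lie below 0 in both.

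The same genes were then read in the 9 field nurse pools, which had no part in that ranking. After the means of both groups had been subtracted, the 10 genes most like Foxp had r of 0.89 to 0.97 with it, with a median of 0.95, and 10 of the 10 most opposite genes had r below 0, with a median of -0.82. Much of this rested on the low 2J6 pool. Without it, over 8 pools, the 10 most like genes had r of 0.25 to 0.78 with a median of 0.70, 9 of the 10 most opposite were below 0 with a median of -0.43, and the listed transcription factors had a median of 0.59 in place of 0.92. The median over all genes was -0.11 with that pool and -0.05 without it. Over all 9 pools Kr-h1 had r of 0.32 with Foxp, and LOC411780 had -0.41.

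Between apiary bees within colonies, Foxp also moved with properties of the library. Its r with the library's median log2 CPM was -0.64 in 30 foragers and 0.44 in 30 nurses, and with the log2 of reads in genes it was 0.17 and 0.41. The part of these in the likeness values was not tested. When each library's median was subtracted first, 8 of the 10 most like genes and 4 of the 10 most opposite kept a place among the first 10, and none of the most like fell below rank 20.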

How the data were processed

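Total RNA of worker brains was sequenced by the authors, who, per the paper and the submitters' processing notes, trimmed reads with Trimmomatic 0.36, aligned and counted them with STAR on the honey bee genome, removed genes under 1 CPM, normalized each of the 4 tables separately (TMM, edgeR, R 3.6.3) and deposited log2 CPM. The log2 values were used as deposited. Since each library's values rise in equal steps above a floor, whole reads were worked back: 100% of values below 20000 reads lay within 0.1 of a whole number. Exposure and colonies were tested with limma 3.58.1 in R 4.3.3 (trend, two-sided, Benjamini-Hochberg over all genes of a table, threshold 0.05). The fits were run on simulated data with independent noise in each gene and library, which does not check for bees that share a colony. Castes were compared in the apiary on log2 CPM rebuilt from these reads (0.5 reads added, genes in both tables, minus each library's median) with colony as a term. Intervals of differences are at 95% with the residual degrees of freedom of each fit. Figures were made with matplotlib.

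The gene, the list of transcription factors and the tests were chosen with earlier results of these data known. Named by rule were Foxp in every library, the other 15 listed transcription factors (values for slp2, Mblk-1, Kr-h1 and those that passed), and genes by their likeness to Foxp, the first 10 at each end, with at most 2 IDs each where no name was paired. Names came from the study's list. Lists of forkhead, learning and receptor genes and of cell type markers were not used, since their names could not be paired with the IDs. The field colony 1J9 gave foragers only. Of the 79 libraries, 3 apiary foragers (columns of C25 and C27) were placed by group and colony, as their names did not match a single label. Alternatives were the filter, scaling, offset, trend, limma-voom, lanes, runs, colony as a block or as means, and leaving out pools, bees or colonies. The test of caste by colony, the likeness and list values without 2J6 and the centred likeness were added after seeing the data. No sequence is printed, because no table used here pairs one with this ID.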

Additional observations from a re-analysis of the deposited data

Results flagged for a closer look

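Of 14 groups of 4 or 5 libraries (2 groups of field nurses and 12 sets of 5 bees of 1 caste and colony), 1 held a library far from the others in Foxp by Dixon's criterion, which chance alone meets in about 1 in 20 groups. Field foragers were left out, since their values chose the gene. The bee C21-F1 had a log2 CPM of 6.645, and the gap to its neighbour was 0.787 of the range of the 5 C21 foragers. The caste difference of Foxp varied among the 6 apiary colonies by a limma F test added after the values were seen (adjusted p = 0.01356, with 0.81 in C21 and -0.34 in C27 as the extremes), and without C21 the adjusted p was 0.1189. Sequencing lane was not held in any fit of this test.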

How the results depend on the processing

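Replicate numbers name samples and pair none. Castes were paired by colony in the tests of caste, and not in the reported fit of exposure by caste. No alternative changed a call for Foxp, with the exception of the test of caste by colony, where leaving out each colony in turn gave adjusted p-values of 0.008211 to 0.1189, the highest without C21. Directions of differences that did not pass turned often, and the cause was not tested. Fits that each dropped 1 pool or colony gave -0.003 to 0.502 for exposure in field nurses (lowest without 2J6), -0.092 to 0.112 in apiary foragers (below 0 without C21 and, at -0.009, without C27), -0.379 to 0.007 in apiary nurses, -0.099 to 0.487 for the difference between castes in exposure, and -0.063 to 0.166 for caste (below 0 without C21 and C25). Lane as a term gave 0.215 in apiary nurses, and unexposed colonies alone gave -0.032 for caste.

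Counts of called genes moved more than Foxp did. Over the alternatives they ran from 0 to 68 for exposure in apiary foragers (1 as reported), 0 to 157 in apiary nurses (6), 0 to 484 for exposure by caste (0), 3844 to 6806 for caste (6617) and 248 to 2202 for caste by colony (1304). Among colonies they were 7 to 23 in exposed foragers (11), 39 to 86 in unexposed foragers (65), 2 to 543 in exposed nurses (121) and 2007 to 4545 in unexposed nurses (3135). Field nurses stayed at 0. Counting error was at most 0.047 for Foxp. The number of pools and colonies limits the precision.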

Other observations

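Among the 5 nurses of C21, the 3 bees with low Foxp were the 3 with high GB40548, a gene picked out here after its values were seen. The nurses C21-N3, C21-N7 and C21-N8 had Foxp at 5.95, 6.20 and 6.06 and GB40548 at 7.26, 7.21 and 7.14 in log2 CPM. The nurses C21-N4 and C21-N9 had Foxp at 6.76 and 6.87 and GB40548 at 2.07 and 1.71. In the foragers of C21 this split was not seen: C21-F3, with GB40548 at 1.90, had Foxp at 7.20, the same as C21-F4, with GB40548 at 7.26.

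The lowest unexposed apiary nurse in Foxp, C25-N4 at 5.85, was also the lowest of its 15 bees in 9 of the 15 other listed transcription factors, with a median 0.81 below the mean of the others. The lowest unexposed forager, C27-F1 at 6.06, was the lowest in 3 of them, with a median 0.051 below, and the lowest exposed nurse, C21-N3 at 5.95, in 0 of them, with a median 0.27 below. The shares of all genes that were lowest in these bees were not counted.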
